A study of Sus scrofa with 30 samples.

Results

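The genes described here were high in pig embryos on Day 8 of pregnancy and low on both Day 10 and Day 12. They numbered 154 of the 13103 genes in the count table of all embryos. They were chosen by their level, in CPM, the count of a gene scaled to 1000000 counts of its library. A gene was taken when its mean over the 10 Day 8 embryos was at least 2 CPM and at least 3 times the mean of the 10 Day 10 embryos and that of the 10 Day 12 embryos. Of 157 genes that met these thresholds, 3 were left out by name and are not reported here. The cap of 300 genes was not reached. The difference between Day 8 and the later days was therefore set by the choice, and it is given below as a description without a test.

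The study followed the transcriptome of the pig conceptus as elongation began and asked how female and male embryos differ. RNA of 30 whole single embryos was sequenced, 5 females and 5 males for Day 8, as many for Day 10 and as many for Day 12 after insemination. The embryos were flushed from German Landrace x Pietrain gilts that carried litters of a single Pietrain boar, and all gilts had been synchronised with altrenogest and gonadotropins. Each library was made from polyadenylated RNA of 1 embryo, embryonic disc and trophectoderm together, and the labels do not tie an embryo to its gilt, so some embryos of a day were littermates and the p-values below measure the spread between embryos only.

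In this period the pig blastocyst floats free in the uterus, grows as a sphere and then stretches to a thread before it attaches. Its outer epithelium, the trophectoderm, holds most of the cells and takes up nucleosides, folate, metals and lipids from uterine fluid. The epiblast, which forms the embryo proper, lies in a small disc and uses a network of pluripotency factors. Genes switched down after the blastocyst can therefore belong to either tissue, and in RNA of a whole embryo fewer cells of a type and less RNA per cell cannot be told apart.

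Library totals were 14882265 to 33799980 counts for Day 8 embryos, 19773328 to 32476637 for Day 10 and 6068212 to 34002508 for Day 12, with the lowest in d12_f_245. An embryo is named here as in the labels, by its day, its sex (f or m) and its number. Lists of markers for other material were summed in each embryo. Of 25 leukocyte and erythrocyte genes 9 were in the table, with sums of 50.1 to 68.2 CPM on Day 8, 33.4 to 45.8 on Day 10 and 68.4 to 407 on Day 12. PTPRC, the marker of leukocytes as a whole, had no row in this table, from which low genes had been filtered. Of 20 uterine epithelium genes 10 were in the table, with sums of 197 to 419, 649 to 1389 and 2684 to 6292 CPM, and none of them was among the 154 genes. The part of maternal cells in any level below was not tested.

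Taken as 1 quantity, RNA of the 154 genes made up 1.44 to 1.84% of all counts in the Day 8 embryos, 0.197 to 0.599% in the Day 10 embryos and 0.146 to 0.247% in the Day 12 embryos. The days did not overlap between Day 8 and the others, which the choice of genes brings about. Within Day 10, 2 embryos stood above the other 8. Embryo d10_f_433 had 0.599% of its counts on these genes (95% Wilson interval 0.596 to 0.602, counting error only) and d10_m_435 had 0.510% (0.507 to 0.513), while the other 8 Day 10 embryos ran from 0.197 to 0.333%. The counts of calls from Day 10 to Day 12, the spread and the correlations on Day 10 are given with and without them, a setting chosen after the data were seen.

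**Figure D1:**
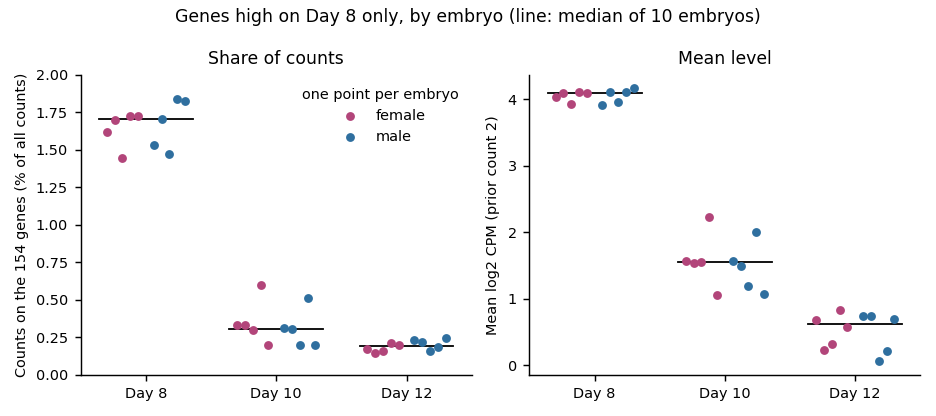
Share of each embryo's counts that fell on the 154 genes (left, percent) and mean log2 CPM of the 154 genes (right), for the 10 embryos of each day, with colour for sex and a line at the median of the day. The Day 8 embryos sit at 1.44 to 1.84%, and d10_f_433 and d10_m_435 lie above the other Day 10 embryos.

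By Day 8 mean, 26 of the 154 genes had 100 CPM or more, 60 had 10 to 100 CPM and 68 had 2 to 10 CPM. The ratio of the Day 8 mean to the higher of the other means was 3 to 5 for 81 genes, 5 to 10 for 42 and 10 or more for 31, with a median of 4.78. Every Day 8 embryo was above every Day 10 embryo for 137 genes, beside 15.8% of all genes, and above every Day 12 embryo for all but 21 genes, beside 14.7% of all genes. For 10 genes the Day 8 embryos overlapped both later days. The median gene kept 18.5% of its Day 8 mean on Day 10 and 9.53% on Day 12. By annotation 148 of the genes were protein coding and 5 were long noncoding RNAs.

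Fold changes below come from a model of all 13103 genes, scaled by the trimmed mean of M-values (TMM), and are in log2. A gene was called between days when its false discovery rate (FDR) was under 0.001 and its log2 fold change lay beyond 1, and between sexes when the FDR was under 0.05. From Day 8 to Day 10 the median log2 fold change of the 154 genes was -2.26, and 145 were called lower, beside 4.2% of all genes. From Day 8 to Day 12 the median was -3.44, and 152 were called lower, beside 10.4% of all genes. Both counts follow from the choice of the genes. Of all 13103 genes 1295 were called higher and 550 lower from Day 8 to Day 10. These are the background for the counts of gene lists below. Scaling by library size alone moved the median log2 fold change of all genes by -0.18 from Day 8 to Day 10, by 0.20 from Day 10 to Day 12 and by 0.02 from Day 8 to Day 12.

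The rule used no comparison of Day 10 with Day 12, but its ceiling on both days limited how far a gene could rise from Day 10 and set no limit to a fall. The balance of falls and rises between these days is thus in part fixed by the choice of genes, and the counts that follow are a description. Of the 154 genes 51 fell further, which is 33.1% of them beside 8.39% of all genes, and 1 rose, beside 14.9% of all genes. The median log2 fold change of the 154 genes was -0.76 and that of all genes was 0.04. A value below 0 was found for 126 of the 154 genes, or 81.8%, and for 47.3% of all genes. The remaining 102 genes were low on both days without a call. Without d10_f_433 and d10_m_435 the fall was called for 42 of the 51, and in the fit against a log2 fold change of 1 it was called for 26.

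**Figure D2:**
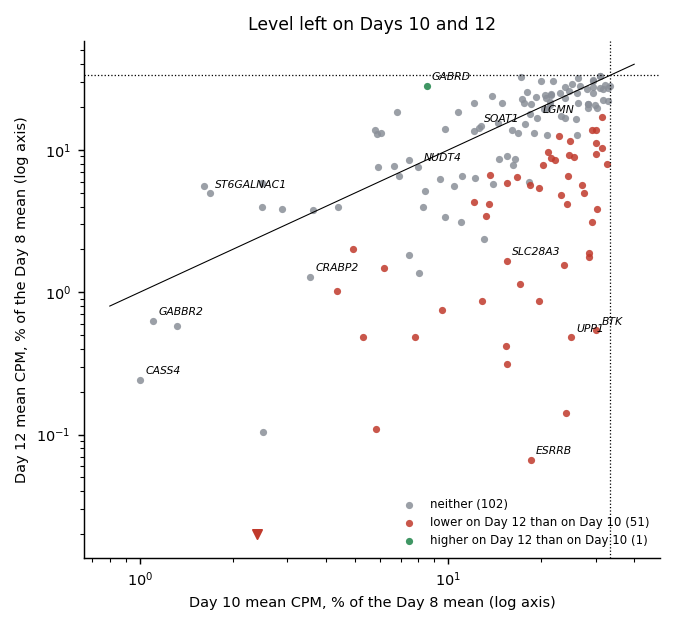
Percent of the Day 8 mean left on Day 10 (horizontal) and on Day 12 (vertical), both log axes, 1 point a gene, with the line of equal values and dotted lines at the ceiling of the rule. Points far below the line are genes that went on falling after Day 10, coloured for the 51 called lower, and the triangle is TRPA1, at 0 in all Day 12 embryos and drawn at the bottom edge.

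The genes with the highest Day 8 means included a run of enzymes and a carrier for nucleosides and sugars. The list of nucleoside transport and pyrimidine salvage genes, written after the 154 genes were known, held 35 genes of the table, of which 3 were among the 154, and from Day 8 to Day 10 8 of the 35 were called lower and 2 higher. SLC28A3 (chromosome 10, 30663060 to 30730766, build Sscrofa11.1), the carrier that brings nucleosides into the cell with sodium, had 818, 1088 and 1307 CPM in the lowest, the median and the highest Day 8 embryo. In this order, which is kept below, its Day 10 values were 51.4, 138 and 396 CPM and its Day 12 values 2.75, 15.5 and 50.8 CPM. The 3 days did not overlap, though the lowest Day 10 and the highest Day 12 embryo came close, at 51.4 and 50.8 CPM. The fall from Day 10 to Day 12 was called (log2 fold change -3.39, SE 0.39, FDR 6.8e-09).

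UPP1 (chromosome 18, 48418385 to 48440414), uridine phosphorylase, splits uridine into uracil and ribose 1-phosphate. Its levels were 398, 665 and 848 CPM on Day 8, 34.3, 162 and 384 CPM on Day 10 and 1.38, 2.59 and 4.94 CPM on Day 12. The 3 days were apart from each other in every embryo, and 0.485% of the Day 8 mean was left on Day 12. The log2 fold change from Day 10 to Day 12 was -5.89 (SE 0.38, FDR 2.2e-14), against -1.86 from Day 8 to Day 10. In CPM the larger drop was the first, with means of 634, 159 and 3.08 CPM on Days 8, 10 and 12. PGM2 (chromosome 8, 29307628 to 29343012), which turns ribose 1-phosphate into ribose 5-phosphate, had 732, 887 and 1277 CPM on Day 8, 145, 193 and 287 CPM on Day 10 and 45.5, 81.9 and 110 CPM on Day 12. Here too no days overlapped, and the fall from Day 10 to Day 12 was called (log2 fold change -1.48, SE 0.14, FDR 6.5e-11).

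PGM2 was also counted in the fixed list of glycogen and sugar interconversion enzymes, of which 3 of 39 in the table were among the 154. PYGM, the glycogen phosphorylase best known from muscle, had 47.4, 178 and 265 CPM on Day 8, 2.95, 21.5 and 63.1 CPM on Day 10 and 0.13, 0.293 and 1.4 CPM on Day 12. The lowest Day 8 embryo, d08_f_124, lay inside the Day 10 range. The fall from Day 10 to Day 12 was called for PYGM (log2 fold change -5.92, SE 0.49, FDR 8.5e-12) and not for AKR1A1, an aldo-keto reductase, which had means of 23.6 CPM on Day 10 and 17.4 CPM on Day 12. Over the whole list 6 of the 39 genes were called lower and 5 higher from Day 8 to Day 10, and 6 lower and 4 higher from Day 10 to Day 12. NUDT4, which removes phosphate from inositol pyrophosphates, kept 7.97% of its Day 8 mean on Day 10 and 7.61% on Day 12, and no change was called between those days (log2 fold change -0.27, SE 0.17, FDR 0.18).

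Among genes of folate and retinoid handling, MTHFD1L (chromosome 1, 15140929 to 15330265), which releases formate from folate in mitochondria, had 642, 820 and 994 CPM on Day 8. Its levels were 53, 221 and 458 CPM on Day 10 and 15.7, 40.6 and 108.8 CPM on Day 12. The Day 10 and Day 12 embryos overlapped, and the fall between them was called (log2 fold change -2.43, SE 0.29, FDR 1.5e-08), but not in male embryos alone. FOLR1, a folate receptor of the cell surface, had 11.6, 21.7 and 50.8 CPM on Day 8, 1.36, 5.15 and 10.4 CPM on Day 10 and 1.09, 3.65 and 19.6 CPM on Day 12. The Day 12 maximum, in d12_f_245, lay inside the Day 8 range. A second gene with the symbol FOLR1 lies beside it on chromosome 9 (6746014 to 6750431) and had means of 1.07, 1.47 and 3.97 CPM on Days 8, 10 and 12, so reads shared by the copies make the level of FOLR1 uncertain. Of 27 folate and one-carbon genes, a list written after the 154 genes were known, 2 were called lower and 5 higher from Day 8 to Day 10.

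CRABP2 (chromosome 4, 93388198 to 93393861), the carrier that hands retinoic acid to its nuclear receptors, had 83.6, 146 and 221 CPM on Day 8, 2.27, 4.69 and 10.5 CPM on Day 10 and 0.259, 0.731 and 7.68 CPM on Day 12. Every Day 8 embryo was above every later one, and 3.55% of the Day 8 mean was left on Day 10. The log2 fold change from Day 10 to Day 12 was -1.62 (SE 0.43, FDR 0.0016), which missed the threshold. CRABP2 was the only one of 24 retinoid genes in the table that was among the 154.

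Of the metal carriers, SLC31A1 (chromosome 1, 253868389 to 253893135), the copper importer of the plasma membrane, had the second highest Day 8 mean of the 154 genes. It had 1721, 2048 and 2353 CPM on Day 8, 211, 334 and 675 CPM on Day 10 and 12.2, 145 and 174 CPM on Day 12. No days overlapped, and the lowest Day 12 values were those of d12_f_271 and d12_f_245. Its fall from Day 10 to Day 12 was called (log2 fold change -1.86, SE 0.30, FDR 3.1e-06). SLC39A14, an importer of zinc, iron and manganese, had 35, 50.4 and 66.2 CPM on Day 8, with means of 13.1 CPM on Day 10 and 15.1 CPM on Day 12, and no change between the later days was called (log2 fold change -0.02, SE 0.22, FDR 0.94). These were 2 of the 30 genes of a list of metal carriers written after the 154 genes were known, and 5 of the 244 solute carriers in the table were among the 154, with SLC7A2 and SLC27A5 as the others.

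**Figure D3:**
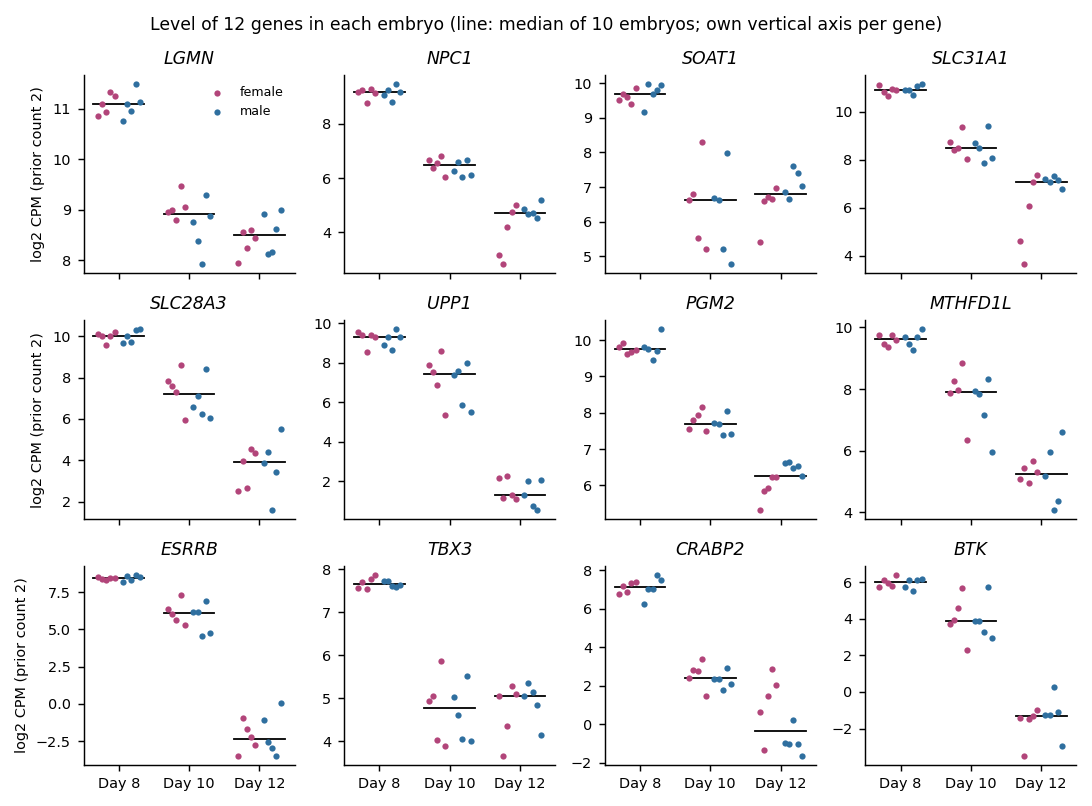
Level of 12 of the genes in each embryo (log2 CPM with a prior count of 2, an axis for each gene), with colour for sex and a line at the median of the day. LGMN, SOAT1 and TBX3 are about level on Days 10 and 12, while ESRRB, UPP1, BTK and SLC28A3 drop again by Day 12.

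The gene with the highest Day 8 mean was LGMN (chromosome 7, 114176217 to 114210096), the lysosomal protease that cuts after asparagine. Its levels were 1850, 2258 and 2946 CPM on Day 8, 219, 425 and 712 CPM on Day 10 and 268, 372 and 574 CPM on Day 12. The later days covered nearly the same range, and no change between them was called (log2 fold change -0.40, SE 0.15, FDR 0.02). NPC1 (chromosome 6, 108403126 to 108450486), which moves cholesterol out of late endosomes and lysosomes, had 463, 587 and 729 CPM on Day 8, 55.4, 82.6 and 113 CPM on Day 10 and 6.92, 26.3 and 40.6 CPM on Day 12. For NPC1 no days overlapped, and the fall from Day 10 to Day 12 was called (log2 fold change -1.88, SE 0.20, FDR 1e-09). LGMN and NPC1 were the only 2 of 77 lysosomal genes in the table that were among the 154, while 12 of the 77 were called higher and 6 lower from Day 8 to Day 10.

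SOAT1 (chromosome 9, 121045211 to 121112393), which esterifies cholesterol for storage, had 624, 861 and 1037 CPM on Day 8, 23.2, 90.3 and 314.6 CPM on Day 10 and 48.1, 119 and 182 CPM on Day 12. The Day 12 range lay within the Day 10 range, and the log2 fold change between them was 0.07 (SE 0.32, FDR 0.86). The fixed list of steroid and sterol enzymes does not hold SOAT1, and none of its 42 genes in the table was among the 154. Of the 42, 19 were called higher and 1 lower from Day 8 to Day 10. PRDX6, a peroxide-reducing enzyme that also acts on phospholipids, had 687, 890 and 975 CPM on Day 8, 87, 149 and 275.9 CPM on Day 10 and 60.4, 134 and 190 CPM on Day 12. ABCC2, a pump for conjugated organic anions, had 369, 478 and 779 CPM on Day 8 and kept 32.9% of its Day 8 mean on Day 10 and 27.3% on Day 12. Neither PRDX6 (FDR 0.026) nor ABCC2 (FDR 0.022) was called between Day 10 and Day 12.

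Of 30 pluripotency factors in the table, 4 were among the 154, or 13.3%, beside 1.18% of all genes. GDF3, PRDM1 and SOX2, also of the 30 and named after their values were seen, were at or under 1 CPM on every day. Which cells of the embryo held the RNA of these factors was not tested. ESRRB (chromosome 7, 99511135 to 99699478), an orphan nuclear receptor of the pluripotency network, had 312, 364 and 409 CPM on Day 8, a narrow range. It had 21.1, 62.8 and 158 CPM on Day 10 and 0, 0.111 and 1.04 CPM on Day 12. The days did not overlap, and 0.0668% of the Day 8 mean was left on Day 12. With a log2 fold change of -8.22 (SE 0.44, FDR 3.6e-16), its fall from Day 10 to Day 12 was the largest among the 154 genes. ESRRG, the related receptor, had 22.6, 36.5 and 49.7 CPM on Day 8, 0.514, 2.99 and 8.64 CPM on Day 10 and 0, 0.17 and 0.824 CPM on Day 12. It also fell from Day 10 to Day 12 (log2 fold change -4.04, SE 0.45, FDR 4.5e-09). ESRRB and ESRRG were 2 of 29 nuclear receptors in the table.

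TBX3 (chromosome 14, 37582704 to 37596767), a T-box factor, had 188, 209 and 244 CPM on Day 8, 12.3, 25 and 58.1 CPM on Day 10 and 12.4, 34.5 and 44.9 CPM on Day 12. Unlike ESRRB it was level on the later days (log2 fold change 0.03, SE 0.22, FDR 0.92). DPPA3, which guards maternal DNA methylation after fertilisation, had 4.05, 5.04 and 7.55 CPM on Day 8 and means of 1.29 CPM on Day 10 and 1.498 CPM on Day 12. UTF1, a chromatin factor of undifferentiated cells, had 29.3, 42.5 and 67.3 CPM on Day 8, 1.88, 4.63 and 16.3 CPM on Day 10 and 0.879, 6.47 and 54.5 CPM on Day 12. The Day 12 value of 54.5 CPM was that of d12_f_245, and the next highest was 8.87 CPM in d12_f_271. Neither DPPA3 (FDR 0.88) nor UTF1 (FDR 0.35) was called between Day 10 and Day 12.

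The rest of the pluripotency list did not share 1 course. From Day 8 to Day 10 10 of the 30 were called lower and 4 higher, and from Day 10 to Day 12 13 were called lower and 6 higher. POU5F1, which is outside the 154, had means of 32.1, 13.2 and 1.84 CPM on Days 8, 10 and 12, and NANOG had 3.80, 2.06 and 0.0518 CPM. PRDM14 had 1.92, 0.547 and 0.0122 CPM and missed the 2 CPM threshold. TDGF1, a coreceptor of NODAL, had 14.6, 617 and 94.96 CPM. POU5F1, NANOG and TDGF1 were named after their values were seen. EED, a subunit of Polycomb repressive complex 2, was among the 154 and among the 10 with the smallest spread on Day 8, with 80.4, 89.9 and 104 CPM, and kept 26% of its Day 8 mean on Day 10 and 25.1% on Day 12. None of 34 trophectoderm transcription factors and none of 21 hypoblast markers in the table was among the 154, beside 1.18% of all genes. At that share lists this short can give none, so these counts do not set the tissues apart.

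KITLG and its receptor KIT were both among the 154. KITLG, the stem cell factor, had 92.5, 116 and 147 CPM on Day 8, 4.99, 31 and 68 CPM on Day 10 and 1.34, 4.65 and 18.6 CPM on Day 12. Its fall from Day 10 to Day 12 was called (log2 fold change -2.61, SE 0.39, FDR 9.4e-07), but not in male embryos alone. KIT, the receptor tyrosine kinase, had 4.35, 6.65 and 12.8 CPM on Day 8 and means of 1.93 CPM on Day 10 and 0.946 CPM on Day 12, with no call between those (log2 fold change -1.22, SE 0.35, FDR 0.0037). The other receptor tyrosine kinase among the 154 was EPHB2, and the other growth factor was RSPO3, of 45 and 79 in the table. From Day 8 to Day 10 13 of those 45 receptors and ephrins and 21 of the 79 growth factors were called higher, beside 1295 of all 13103 genes.

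RSPO3, which amplifies WNT signals, and its receptor LGR5 fell within a list of WNT modifiers and feedback genes that was written after the 154 genes were known, with 5 of 29 among the 154. RSPO3 had 4.28, 6.97 and 11.8 CPM on Day 8, 0.585, 0.692 and 2.55 CPM on Day 10 and 0.0546, 0.16 and 2.03 CPM on Day 12. LGR5 had 441 counts over the 10 Day 8 embryos, 73 over the Day 10 embryos and 2 over the Day 12 embryos, a Day 8 to Day 12 ratio of 211 (95% interval 58.0 to 1746, counting error only). AXIN2, DACT1 and SNAI1, the other 3, were named after their values were seen. AXIN2, a feedback inhibitor of WNT signalling, had 23.4, 27.7 and 34.9 CPM on Day 8, and DACT1, an inhibitor that binds Dishevelled, had 27.2, 32.2 and 46.8 CPM. AXIN2 had means of 5.86 CPM on Day 10 and 6.95 CPM on Day 12, and DACT1 4.94 and 2.92 CPM, and of the 5 only LGR5 was called lower from Day 10 to Day 12.

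Glycosyltransferases and sulfotransferases of glycans gave 6 of 90 in the table, or 6.67%. Of the 90, 24 were called higher and 6 lower from Day 10 to Day 12, and none of the 6 among the 154 was called by edgeR's quasi-likelihood test on all embryos. LARGE2, which builds the matriglycan of dystroglycan, had 54.5, 62.1 and 95.5 CPM on Day 8, 6.97, 9.39 and 18.9 CPM on Day 10 and 3.24, 7.88 and 14.2 CPM on Day 12. ST6GALNAC1, which caps O-glycans with sialic acid, had 18.8, 28.8 and 49 CPM on Day 8, 0.0413, 0.23 and 2.77 CPM on Day 10 and 0, 1.42 and 3.89 CPM on Day 12. It kept 1.69% of its Day 8 mean on Day 10 and 4.94% on Day 12 (log2 fold change from Day 10 to Day 12 1.47, SE 0.55, FDR 0.022, not called). ST6GALNAC1 was called higher without d10_f_433, without d10_f_433 and d10_m_435 together, and by edgeR's robust likelihood test. FUT1, which makes the H antigen, had 4.64, 12.6 and 23.1 CPM on Day 8, 0.179, 0.536 and 1.59 CPM on Day 10 and 0.612, 1.72 and 2.25 CPM on Day 12 (log2 fold change 0.90, SE 0.34, FDR 0.022, not called). ST3GAL5, GAL3ST1 and GALNTL5 were the other 3.

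Interferon response and innate immune sensor genes gave 7 of 84 in the table, or 8.33%: 5 tripartite motif (TRIM) genes, of a family of ubiquitin ligases, with TLR7, a sensor of single-stranded RNA, and IFI35. The list took in TRIM genes by their name alone, so their count does not stand for a response to interferon. TRIM15 had 64.4, 77.9 and 102 CPM on Day 8, 2.49, 6.25 and 29.6 CPM on Day 10 and 0.268, 4.98 and 11.5 CPM on Day 12. TRIM31 had 17.3, 28 and 47.7 CPM on Day 8, 0.308, 2.43 and 14.2 CPM on Day 10 and 0, 0.134 and 0.692 CPM on Day 12. TRIM10 had 16.4, 23.9 and 26 CPM on Day 8, 0.385, 1.27 and 9.18 CPM on Day 10 and 0.0764, 0.662 and 1.79 CPM on Day 12. These genes and TRIM26 lie together on chromosome 7, and TRIM50 lies on chromosome 3. TRIM31 (log2 fold change -4.19, SE 0.55, FDR 8.9e-08) and TRIM50 (-4.58, SE 0.31, FDR 5.1e-14) fell from Day 10 to Day 12. TRIM10 (FDR 0.0034), TRIM15 (FDR 0.015) and TRIM26 (FDR 0.026) were not called. Over the 84 genes 13 were called higher and 11 lower from Day 8 to Day 10.

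Genes of immune receptor signalling, a list written after the 154 genes were known, gave 10 of 27. BTK, the kinase of B-cell receptor signalling, had 47, 67.2 and 87.3 CPM on Day 8, 3.94, 13.6 and 51.8 CPM on Day 10 and 0, 0.345 and 1.03 CPM on Day 12. The Day 10 values of d10_f_433 and d10_m_435, 51.8 and 51.6 CPM, lay inside the Day 8 range, and the next was 21.9 CPM. The fall from Day 10 to Day 12 was called (log2 fold change -5.83, SE 0.45, FDR 1.6e-12). PAG1, an adaptor that recruits the kinase CSK, had a Day 8 mean of 65.0 CPM, TNFSF4, the ligand of OX40, one of 13.7 CPM and FCER1G, the gamma chain of Fc receptors, one of 11.8 CPM. PAG1 (FDR 6.1e-06) and FCER1G (FDR 0.00068) were called lower from Day 10 to Day 12 and TNFSF4 was level (log2 fold change 0.00, SE 0.20), though the call of FCER1G was lost when any of 11 single embryos was left out. FCER1G is also in the leukocyte and erythrocyte list, of which it was the only one among the 154, and the summed level of that list was given above.

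CASS4, a scaffold of the Cas family, belongs to the same signalling list and was nearly confined to Day 8. It had 1548 counts over the 10 Day 8 embryos, 16 over the Day 10 embryos and 4 over the Day 12 embryos. The Day 8 to Day 10 ratio of its pooled levels was 104.9 (95% exact interval 64.4 to 184, counting error only). BPI, which binds bacterial lipopolysaccharide, and BTN1A1, a butyrophilin, are outside these lists. BPI had 5.38, 23.9 and 46 CPM on Day 8, 0.899, 4.81 and 21.7 CPM on Day 10 and 0, 0.429 and 0.71 CPM on Day 12, and fell from Day 10 to Day 12 (log2 fold change -4.14, SE 0.53, FDR 6.2e-08).

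Several channels and receptors best known from neurons were among the 154, at low levels. Of 112 ion channel genes 5 were among the 154, or 4.46%, and of 92 G protein-coupled receptors 4, or 4.35%, beside 1.18% of all genes. The rest of these lists did not share this course. From Day 8 to Day 10 19 of the 112 channel genes were called higher and 17 lower. Of the 92 receptors 18 were called higher and 4 lower. TRPA1, a cation channel opened by irritants, had 2.22, 4.38 and 6.72 CPM on Day 8. It had 1051 counts over the Day 8 embryos, 26 over the Day 10 embryos and 0 over the Day 12 embryos. Against a floor of 3 counts over the pooled Day 12 libraries its level was at least 335-fold lower on Day 12 than on Day 8, and at least 7.64-fold lower than on Day 10. The exact 95% lower limits of these ratios, which count the error of both days, were lower, at 272-fold and 5.79-fold. GABBR2, a subunit of the metabotropic GABA receptor, had 980, 11 and 7 counts on Days 8, 10 and 12, and SHD, an adaptor with an SH2 domain, had 884, 13 and 6. For GABBR2 the Day 8 to Day 10 ratio was 96.6 (95% interval 53.7 to 194) and for SHD it was 73.7 (42.9 to 139). No Day 10 or Day 12 embryo had more than 3 counts of either gene.

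GRIN1, the obligate subunit of NMDA receptors, had 8.31, 12.1 and 14.5 CPM on Day 8, 0.942, 3.53 and 4.87 CPM on Day 10 and 0, 0.132 and 0.659 CPM on Day 12, and its fall from Day 10 to Day 12 was called (log2 fold change -4.34, SE 0.36, FDR 8.3e-12). P2RX1, an ATP-gated channel, and KCNAB2, a subunit of potassium channels, were also called lower between these days, at -2.02 (SE 0.45, FDR 0.0003) and -2.11 (SE 0.46, FDR 0.00021), and both calls were lost without d10_f_433 and d10_m_435 together. GABRD, the delta subunit of the GABA-A receptor, was the only gene called higher, from 0.0825, 0.22 and 0.554 CPM on Day 10 to 0.303, 0.676 and 2.47 CPM on Day 12, after 1.21, 2.75 and 5.17 CPM on Day 8. Its Day 12 maximum was that of d12_f_245, the shallowest library. The ranges of Days 10 and 12 overlapped, and the call (log2 fold change 1.44, SE 0.35, FDR 0.00071) was lost when any of 13 of the 20 embryos was left out and held without d10_f_315, d10_m_435, d12_f_297, d12_f_299, d12_m_249, d12_m_275 or d12_m_307. It was also lost without d10_f_433 and d10_m_435 together. GFRA2, a receptor of neurturin, had 663 counts on Day 8, 182 on Day 10 and 1 on Day 12, so the Day 10 to Day 12 ratio was 161 (95% interval 28.5 to 6375, counting error only). A second gene with the symbol GFRA2 elsewhere on chromosome 14 (3138174 to 3209687) had means of 0.219, 0.730 and 1.60 CPM on Days 8, 10 and 12, so reads shared by the copies make this uncertain.

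Of the remaining genes with high Day 8 means, FAM35A, a component of the shieldin complex of DNA repair, had 149, 185 and 220 CPM on Day 8, 4.06, 26.6 and 89.3 CPM on Day 10 and 0.765, 1.92 and 3.72 CPM on Day 12. NAT8L, which makes N-acetylaspartate, had 65.7, 82.5 and 147 CPM on Day 8, 3.3, 17.9 and 55.9 CPM on Day 10 and 0.191, 1.12 and 2.85 CPM on Day 12. Both fell from Day 10 to Day 12, by 4.04 (SE 0.43, FDR 1.4e-09) and by 4.15 (SE 0.43, FDR 1.1e-09) on the log2 scale. CEP131, a protein of centriolar satellites, had 53, 67 and 111.3 CPM on Day 8, 0.739, 5.04 and 16.4 CPM on Day 10 and 1.57, 2.13 and 8.9 CPM on Day 12. It was not called (log2 fold change -1.32, SE 0.40, FDR 0.0053). ARG1, arginase of the urea cycle, had 4.41, 11.4 and 42.1 CPM on Day 8, 0.123, 0.623 and 1.31 CPM on Day 10 and 0.115, 0.582 and 1.32 CPM on Day 12. No Day 8 embryo overlapped the later days, which were alike in range, and 3.65% of the Day 8 mean was left on Day 10.

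TBC1D9, a Rab GTPase-activating protein, RASL11A, a Ras-like GTPase, and RASSF5, an effector of Ras, were called lower from Day 10 to Day 12. Their log2 fold changes were -1.65 (SE 0.27), -1.85 (SE 0.33) and -2.47 (SE 0.46). Each of these calls was lost in male embryos alone and in the fit against a log2 fold change of 1. That of RASL11A was also lost in female embryos alone. RASGRF2, a Ras exchange factor, had 39.5, 71 and 89.2 CPM on Day 8 and means of 16.4 CPM on Day 10 and 11.6 CPM on Day 12 (FDR 0.052). Other lists gave a share near or under that of all genes, 1.18%. Zinc finger protein genes gave 1 of 298, or 0.336%, and unnamed loci 15 of 1386, or 1.08%. The lists of keratins (14 genes), tight junction genes (35) and serine proteases (26) gave 0. Those of heat shock proteins and chaperones (100) and of complement and coagulation genes (41) also gave 0. At the share of all genes, lists of these sizes can give none. These lists were drawn up by symbol, so a gene such as IGSF5, an adhesion protein of tight junctions, can lie outside them. Of the 154 genes 71 were in at least 1 of 60 fixed lists, unnamed loci not counted.

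**Figure D4:**
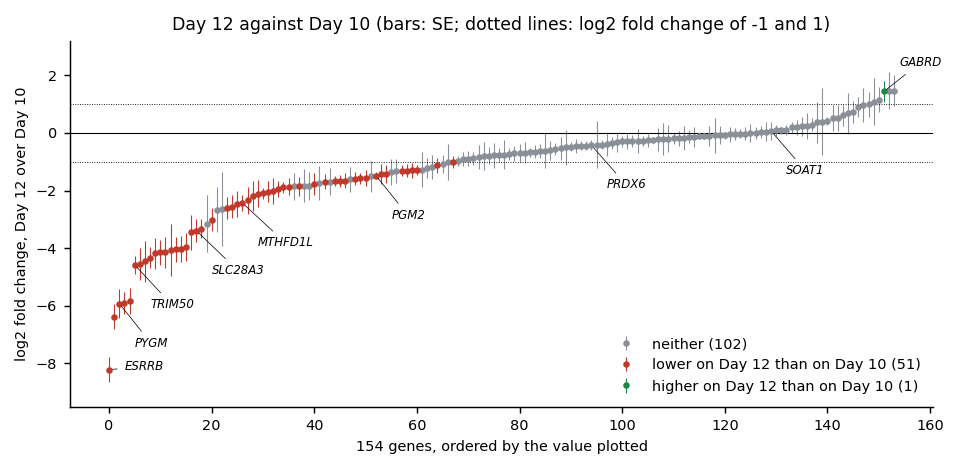
Log2 fold change from Day 10 to Day 12 of the 154 genes, ranked, with bars for the standard error and colour for the call. ESRRB is lowest at -8.22, 51 genes are called lower and GABRD, at 1.44, is the only gene called higher.

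From Day 10 to Day 12, ESRRB, PYGM, UPP1, BTK, TRIM50 and GRIN1 had the lowest fitted log2 fold changes among genes with more than 3 counts in some Day 12 embryo, from -8.22 to -4.34, and 44 of the 51 lower calls held when any single Day 10 or Day 12 embryo was left out. The calls lost in this way were FCER1G and BTN1A1 (each by leaving out any of 11 embryos), LOC110261318 (any of 10), PPM1E (any of 9), CCDC151, P2RX1 and LOC102160349, of which PPM1E was named after its values were seen. Leaving out d10_f_433 ended the calls of CCDC151, a protein that docks dynein arms in cilia, and P2RX1, and leaving out d12_m_286 ended that of LOC102160349. ATN1, atrophin, had a fitted value above 0 that was not called, with means of 48.2 CPM on Day 10 and 73.2 CPM on Day 12 (log2 fold change 0.41, SE 0.14, FDR 0.016).

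Female and male embryos were compared within each day in the table of that day, a contrast that the rule for the 154 genes did not use. The comparison was not paired by litter, since the labels do not give the gilt. On Day 8 153 of the 154 genes were in the table and 0 were called by edgeR's quasi-likelihood test, beside 0.658% of all 11405 genes, with 8 of the 153, or 5.23%, at an unadjusted p under 0.05 beside 4.59% of all genes. On Day 10 0 of 110 were called, beside 0.223% of 11675 genes, with 2 of the 110, or 1.82%, at an unadjusted p under 0.05 beside 2.36%. On Day 12 0 of 84 were called, beside 0.123% of 12220 genes, with 9 of the 84, or 10.7%, at an unadjusted p under 0.05 beside 22.7%. DESeq2 called 0, 0 and 3 of them on the 3 days, beside 1.13, 0.454 and 1.18% of all genes. The robust likelihood test of edgeR called 1, 0 and 2, beside 1.37, 0.360 and 0.827%. A fit of 6 groups of sex and day in the table of all days called 10 of the 154 on Day 12, or 6.49%, beside 20.3% of all genes. The 3 genes that DESeq2 called on Day 12 were CRABP2, FOLR1 and TMEM92, the last named after its values were seen.

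On Day 12 the mean of CRABP2 was 3.33 ± 2.84 CPM over the 5 females and 0.516 ± 0.279 CPM over the 5 males (± SD; female over male log2 fold change 2.65, SE 0.70, FDR 0.198 by edgeR). Embryo d12_f_271, at 0.296 CPM, lay among the males, and d12_f_297, d12_f_299 and d12_f_289 were highest, at 7.68, 4.31 and 2.73 CPM. The mean of FOLR1 was 7.83 CPM over the Day 12 females and 2.25 CPM over the males (log2 fold change 1.78, SE 0.50, FDR 0.198), with d12_f_245 highest. On Day 8, AXIN2 had the smallest unadjusted p, with a mean of 25.8 CPM over the females and 31.2 CPM over the males (log2 fold change -0.29, SE 0.09, FDR 0.493). No gene was called for a difference between sexes in the step from Day 10 to Day 12, and the smallest FDR among the 154 was 0.192, with 6.49% of the 154 at an unadjusted p under 0.05 beside 18.9% of all genes. BTK, TLR7 and PIM2, the 3 on the X chromosome, were called in no sex comparison by edgeR's quasi-likelihood test, PIM2 being named after its values were seen.

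The 154 genes varied more between embryos of a day than the table as a whole. For Days 8, 10 and 12 the median SD of log2 CPM was 0.354, 0.658 and 0.775, and over all genes it was 0.227, 0.286 and 0.453. Without d10_f_433 and d10_m_435 the Day 10 medians were 0.563 for the 154 genes and 0.269 for all genes. On Day 8 LOC100621115, TBX3, ANKRD29, EED, TRIM26, NLN, ESRRB, MAP3K21 and PPP2R5A were among the genes with the smallest spreads. Among the widest were PLA2G2F, IVL, MYO7A, DOK7 and IGSF5. Levels of low genes spread more from counting alone, and the comparison was not matched for level.

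The median correlation between pairs of the 154 genes was 0.321 on Day 10, with 73.3% of pairs above 0, against 0.048 on Day 8 and 0.124 on Day 12. Genes with at least 2 CPM on Day 8 gave medians of 0.002, 0.004 and 0.016 on Days 8, 10 and 12. Without d10_f_433 and d10_m_435 the Day 10 median of the 154 genes was 0.172 over 8 embryos, with 61.6% of pairs above 0, and that of genes with at least 2 CPM on Day 8 was 0.005. The correlations of a day share the same embryos and describe them only. Of the 154 genes 112 had their highest Day 10 level in d10_f_433, with 85 genes, or d10_m_435, with 27. The lowest Day 10 level was most often that of d10_f_454, with 42 genes, and d10_m_453, with 40. On Day 12 the highest level was most often that of d12_f_245, the shallowest library, with 41 genes, and d12_m_307, with 31. For ESRRB the Day 10 values of d10_f_433 and d10_m_435 were 158 and 118 CPM and the next was 74.3 CPM. SOAT1 had 314.6 and 249.3 CPM in these embryos and 104 CPM in the next.

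**Figure D5:**
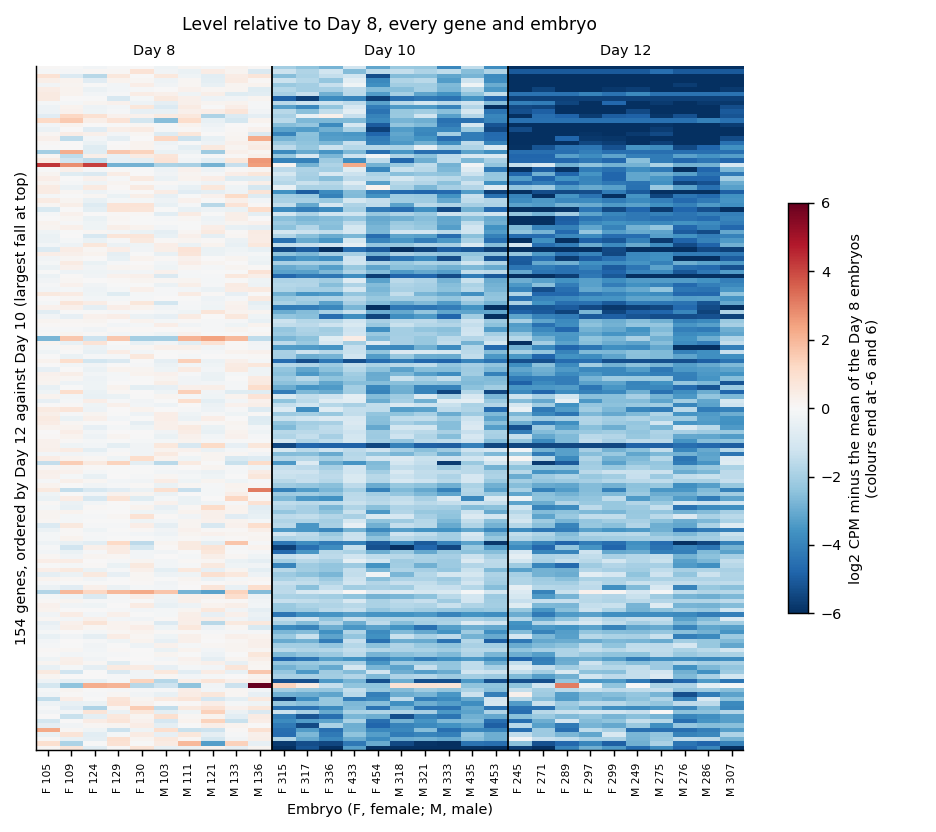
Log2 CPM of the 154 genes (rows, ordered by log2 fold change from Day 10 to Day 12) in the 30 embryos (columns), minus the Day 8 mean of the gene, with colours ending at 6 in both directions. In the Day 10 block the columns of d10_f_433 and d10_m_435 are nearer the Day 8 level than the others, and the rows at the top drop further on Day 12.

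In 7 genes a single Day 8 embryo held over 30% of the Day 8 sum, and for these the Day 8 mean does not stand for the group. IVL, involucrin of the cornified envelope, had 33.8 CPM in d08_m_136, which was 87.3% of its Day 8 sum, and a median of 0.13 CPM over the Day 8 embryos, below its Day 10 median of 0.319 CPM. Embryo d08_m_136 also held the highest Day 8 values of DRAM1, a regulator of autophagy, CASR, the calcium-sensing receptor, and CEMIP, which takes part in hyaluronan breakdown, with 52.5, 42.4 and 34.0% of their Day 8 sums. PLA2G2F, a secreted phospholipase, had 12.6 and 11.7 CPM in d08_f_105 and d08_f_124 and a median of 0.123 CPM. FCN2, a lectin that binds microbial sugars, and PDZRN4 were the other 2, with 34.7% in d08_f_105 and 30.5% in d08_f_109. With the median of the embryos in place of the mean the rule gave 164 genes, 140 of them among the 154.

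Some of the genes were neighbours in the genome. Of the 154, 7 pairs lay side by side with no other table gene between them, and 25 pairs that followed each other among the 154 along a chromosome lay within 1000000 bases of each other. NPC1 was followed by ANKRD29 after 10625 bases on chromosome 6. LOC100511133 lay 3387 bases from DPPA3 on chromosome 5 and fell from Day 10 to Day 12 (log2 fold change -3.96, SE 0.49, FDR 3e-08), while DPPA3 was level. LOC110256791 lay 46357 bases from TBX3 on chromosome 14. TRIM10 (chromosome 7, 22718000 to 22731445) and TRIM15 (22730372 to 22742941) overlapped by 1073 bases, and TNFSF4 ended 172 bases before PRDX6 began on chromosome 9. The strand setting of the counting was not given in the sources used here, so reads of overlapping or touching genes may have been assigned to either.

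At the threshold of 3 times, URB1, with 58.5 CPM on Day 8 against 19.5 on Day 10, and SH3GL1, with 337 against 112 on Day 12, were just inside. Just outside were THBD, with 2.65 against 0.890 CPM on Day 12, and PLIN2, the coat protein of lipid droplets, with 1897 against 637 CPM on Day 10 and 120.6 CPM on Day 12. At the threshold of 2 CPM, LGR5 and APBA1, with 2.02 and 2.10 CPM, were inside, and SPINK7 and ITIH5, with 1.999 and 1.953 CPM, were outside. With TMM-scaled CPM 21 of the 154 no longer met the rule and 3 others did, and a threshold of 4 times gave 106. The rule applied to female embryos alone gave 158 genes and to male embryos alone 164, and 119 of the 154 met it in both. Without d10_f_433 and d10_m_435 it gave 179, with 152 of the 154 and 27 others.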

How the data were processed

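RNA of 30 single pig embryos was measured by RNA sequencing of TruSeq Stranded mRNA libraries. The deposited tables hold whole-number read counts per gene, which the authors made from reads trimmed with Trim Galore and mapped to the pig genome, keeping genes over a CPM cutoff, 1 table of all embryos and 1 for each day. The aligner, the counting tool and its strand setting were not given in the sources used here. Coordinates are those of the annotation of build Sscrofa11.1. Sequences of promoters and proteins were not analysed here, and some genes and lists are not reported here.

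CPM was a count divided by the total of its column. Days were compared with edgeR 4.0.16 (quasi-likelihood test, TMM, 3 groups of 10 embryos, all 13103 genes) and sexes within the table of each day, with Benjamini-Hochberg adjustment. DESeq2 1.42.0, edgeR's robust likelihood test, other scalings, filters and left-out embryos were the alternatives. Log2 CPM used a prior count of 2. The fits ran in R 4.3.3 and were tested on simulated data, and intervals of shares are Wilson and of pooled ratios exact, both covering counting error only. A gene at 3 counts or fewer in an embryo was taken as at the floor.

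The genes and lists were chosen with earlier results of these data known. Genes named were the 40 with the highest Day 8 mean, the 20 with the largest ratio, those called between sexes, the 15 largest rises and the 15 largest falls from Day 10 to Day 12, up to 6 of each list (3 unnamed loci), the 10 widest and 10 tightest on Day 8, 5 on each side of each threshold, and neighbours. Others carry a remark. The 5 lists said to be written later are descriptions only. Leaving out each Day 10 or Day 12 embryo from the rule, and d10_f_433 with d10_m_435 from the rule, the fit, the Day 10 spread and the Day 10 correlations, was chosen after the data were seen.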

Additional observations from a re-analysis of the deposited data

Results flagged for a closer look

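For 43 of the genes, the share of counts and the mean level the 10 embryos of each day were searched for a highest or lowest embryo set apart from the others by Dixon's ratio, the gap to the nearest embryo over the whole range on the log2 scale, with a critical value of 0.466. Of 134 groups 5 were found, or 3.73%, and chance gives about 1 in 20. SOAT1 was lowest in d12_f_245, the shallowest library (ratio 0.536, 48.1 CPM against 94.5 CPM in the next). DACT1 was lowest in d10_f_336 (0.603, 3.38 CPM). LARGE2 was highest in d08_m_103 (0.48, 95.5 CPM against 71.8 CPM in the next). IVL was highest in d12_f_289 (0.562, 3.93 CPM against 0.415 CPM). GFRA2 had its only Day 12 count in d12_m_275, which gives a ratio of 1 by construction.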

How the results depend on the processing

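No call between Day 10 and Day 12 reversed its direction in any of the 31 other settings, and 20 of the 52 calls held in all of them. Against 52 calls, 51 lower and 1 higher, the test against a log2 fold change of 1 gave 26 lower and 0 higher, and male embryos alone gave 30 and 0, with 5 embryos a day. Female embryos alone gave 0 higher, Days 10 and 12 alone 0 higher, and the robust likelihood test 3 higher. Leaving out 1 embryo gave 47 to 56 calls, 46 to 55 lower and 0 to 1 higher. Without d10_f_433 and d10_m_435, a setting chosen after the data were seen, 43 calls were made, the median Day 10 SD was 0.563 in place of 0.658 and the median Day 10 correlation 0.172 in place of 0.321. Calls between sexes, 0 on each day, became 1 on Day 8 with the robust likelihood test (PLA2G2F), and on Day 12 3 with DESeq2, 2 with the robust likelihood test and 10 with 6 groups of sex and day in the table of all days. That fit, which shares 1 estimate of the spread, called 1237 genes higher and 1421 lower in females over the whole table, and the cause was not tested. Leaving out 1 embryo gave 0 to 0 calls between sexes on every day. The rule gave 149 to 164 genes without 1 embryo. A prior count of 0.5 gave a median Day 8 SD of 0.360 in place of 0.354. By the study's account a female and a male from the same sow were among the embryos of each stage. The labels do not tie an embryo to its gilt, and no 2 groups share an embryo number, so no paired analysis was possible. The depth limits genes near the floor, of which 9 had at most 3 counts in every Day 12 embryo.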

Other observations

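A few of the genes had fitted values above 0 from Day 10 to Day 12 that missed the threshold. SOX21, a SoxB transcription factor, had 2.49, 4.06 and 5.27 CPM in the lowest, the median and the highest Day 8 embryo, means of 0.226 CPM on Day 10 and 0.542 CPM on Day 12, and a log2 fold change of 0.99 (SE 0.43, FDR 0.049). IGSF5, an adhesion protein of tight junctions, had a Day 8 range of 0.739 to 31.3 CPM and means of 0.193 and 0.671 CPM on Days 10 and 12 (log2 fold change 1.46, SE 0.64, FDR 0.05). DRD2, the dopamine receptor, and ACAN, aggrecan of cartilage matrix, were higher in a single Day 12 embryo each, at 7.09 CPM in d12_f_245 and 5.91 CPM in d12_m_275. DOK7, an adaptor of the kinase MUSK, ran from 0.517 to 22.04 CPM between Day 8 embryos. It had 22.04, 17.1 and 15.6 CPM in d08_m_121, d08_m_111 and d08_m_133, and 12.9 CPM in both d08_f_109 and d08_f_129. The other Day 8 embryos, of both sexes, had 1.71 CPM or less.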
